A study of Homo sapiens with 9 samples.

Results

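Genes of the lysosome, of its cathepsin proteases and of the proteins that acidify and supply it were examined in PC3 xenografts after treatment with antibody-drug conjugates. The 46 genes are a list drawn up by name from known function, though with earlier results of these data known. All 46 were among the 16008 genes listed in both deposited count tables. They comprised 13 proteases, 9 glycosidases and sulfatases, 6 lipid hydrolases and their activators, 6 membrane proteins, 2 transcription factors, 6 subunits or partners of the proton pump and 4 sorting or fusion proteins.

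An antibody-drug conjugate binds a receptor on the cell surface, is taken up with it and is carried through endosomes to the lysosome, where acid-activated proteases cut the linker or digest the antibody and set the drug free. The deruxtecan linker contains a short peptide that lysosomal cathepsins cleave, and its payload inhibits topoisomerase I. Lysosomal enzymes reach the organelle through mannose 6-phosphate receptors or sortilin, work at the low pH kept up by the vacuolar proton pump (V-ATPase), and are transcribed in part under TFEB and TFE3, which bind a short E-box element present near the start of many lysosomal genes.

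RNA-Seq was performed on 3 tumors each from mice given PBS as vehicle, P-DXd (patritumab deruxtecan, directed at HER3) or T-DXd (trastuzumab deruxtecan, directed at HER2). PC3 is a single human line from a prostate cancer bone metastasis that lacks androgen receptor signaling, and it was grown under the skin of male NSG mice, which lack lymphocytes but keep myeloid cells, fibroblasts and vessels of their own. The series record gives mice 11 weeks old, treatment from a tumor volume of 90 mm3, and 5 weekly retro-orbital injections of either conjugate at 5 mg/kg, with harvest at the endpoint, while the study's methods give another age, starting volume and number of injections for the comparison of both conjugates. The titles and the treatment field of the records name opposite conjugates for every treated library (6 in all), and the P-DXd-titled and T-DXd-titled groups are named here after the titles. Comparing all 6 treated libraries with the 3 PBS libraries avoids this conflict.

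Total counts per library ranged from 54481702 to 125538606, with all 3 PBS libraries above the deepest treated library. Every one of the 46 genes was counted at least 73 times in every library. The smallest such count was for ATP6V0A1, and the deepest-counted gene was PSAP. PBS replicate 1 stood apart from the other PBS libraries, and P-DXd-titled replicate 2 carried a large amount of skeletal muscle RNA. The 14 muscle markers summed to 5277 CPM (counts per 1000000, with library sizes adjusted by the TMM method) in that library, to 129 to 354 CPM in the other 5 treated libraries and to 21.2 to 76.9 CPM in the PBS libraries. PC3 keratin and adhesion markers (6 of 6 listed) summed to 1814 to 2569 CPM in PBS and to 3700 to 4400 CPM in treated libraries, and KLK2 and KLK3, which are androgen receptor targets, were not among the listed genes.

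Cells of the host also contain lysosomes, so marker lists of other cell types are given beside the results that follow. Calls of markers are from all 6 treated libraries against PBS, at the threshold defined below. In that comparison 15.2% of all 15070 genes tested were called higher and 17.1% lower. Of 16 macrophage markers 11 were listed (CD163, MRC1, TYROBP, C1QA and C1QC were not), 3 of them (CD68, C1QB and FCER1G) were below 1 CPM in every library, and the list summed to 17.9 to 39.6 CPM in PBS and to 32.5 to 59.8 CPM in treated libraries, with 7 of 10 tested called higher. LAPTM5 alone was at 9.36 to 31.3 CPM in PBS and at 9.52 to 15.7 CPM in treated libraries. Without it the other 10 listed markers summed to 8.27 to 8.56 CPM in PBS and to 23.0 to 44.2 CPM in treated libraries, and LYZ, AIF1 and CSF1R rose by log2 fold changes of 3.29 ± 0.41, 2.13 ± 0.34 and 1.87 ± 0.24 SE. The 18 fibroblast markers summed to 4708 to 5794 CPM in PBS and to 3579 to 5005 CPM in treated libraries (7 called higher and 2 lower of 17). FN1 alone, which many carcinoma cells also express, was at 1806 to 2880 CPM in PBS and at 446 to 629 CPM in treated libraries. Without FN1 the other 17 summed to 2879 to 2914 CPM in PBS and to 2986 to 4471 CPM in treated libraries. COL3A1, MMP2, SPARC and COL1A2 were among those called higher (log2 fold changes of 1.37, 1.79, 1.17 and 0.84). FN1 and ACTA2 were called lower (-2.11 and -0.92). Those not called ran from -0.41 for COL5A1 to 1.85 for DCN, with LUM, VIM, COL1A1 and PDGFRB at -0.20, 0.03, 0.15 and 0.27. LAPTM5 and FN1 were set aside after their values were seen. For endothelial cells, 9 of 10 markers (PECAM1 was not listed) summed to 29.0 to 39.8 CPM in PBS and to 43.6 to 61.3 CPM in treated libraries (3 called higher of 9). Whether reads of mouse cells were removed is not given in the sources used here, and the part of host cells in the results was not tested. In bulk tumor RNA, fewer cells of a type and less RNA per cell cannot be told apart.

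Promoter sequence is shown first for some of the members whose start region carries the E-box core CACGTG. TFEB and TFE3 are known to bind this element. RefSeq promoters (GRCh38.p14, 250 bases before to 50 after a start) were found for 33 of the 46 members by symbol. The core, which reads the same on both strands, was present in 13 of these 33 (39.4%), in 20 of 90 matched genes of a second lysosomal list (22.2%), in 11.8% of the 11776 matched genes of the count tables and in 8.77% of all 27305 genes of the promoter table. With a T before it or an A after it (TCACGTG or CACGTGA), it was present in 12 of the 33 (36.4%), in 21.1% of the second list, in 6.5% of the matched genes of the count tables and in 4.49% of all genes. Both longer forms contain the core. In the sequences below, given 5′ to 3′ on the gene's strand, capitals mark the core.
CTSA, chr20:45891287-45891316, plus strand: gactgtCACGTGgcgccggagttCACGTGa
CTSD, chr11:1763957-1763986, minus strand: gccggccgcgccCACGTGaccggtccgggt
GAA, chr17:80101538-80101567, plus strand: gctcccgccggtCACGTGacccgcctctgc
ATP6V0D1, chr16:67481199-67481228, minus strand: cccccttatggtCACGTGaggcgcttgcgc
MCOLN1, chr19:7522544-7522623, plus strand: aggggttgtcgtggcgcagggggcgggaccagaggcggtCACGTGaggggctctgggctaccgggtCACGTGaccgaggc
LAMP1, chr13:113297039-113297118, plus strand: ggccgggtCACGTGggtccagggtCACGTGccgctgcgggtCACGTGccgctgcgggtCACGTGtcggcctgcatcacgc
IGF2R, chr6:159969002-159969081, plus strand: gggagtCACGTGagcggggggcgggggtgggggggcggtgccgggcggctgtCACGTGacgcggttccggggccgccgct

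CTSA, GAA and MCOLN1 each held 2 copies of the core in the whole promoter, CTSD and ATP6V0D1 1, IGF2R 3 and LAMP1 6. The first 5 of the genes shown above were called higher in at least 1 comparison described below, and LAMP1 and IGF2R in none. Sequences not shown also held the core, in CD63, CLN3 and NEU1, which were called, and in ARSB, CTSF and M6PR, which were not. All 30 bases of the CTSA and GAA windows and 8 of the CTSD window lie in annotated exons of GENCODE v44. Among matched members, the core was present in 8 of 18 that were called in some comparison (44.4%) and in 5 of 15 that were called in none (33.3%). A match describes the letters in these windows and was not tested as a binding site.

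Many of these genes were higher in treated than in PBS tumors, and none was called lower. A gene was called at an adjusted p of 0.05 or less (edgeR quasi-likelihood test, Benjamini-Hochberg adjustment over all genes tested) together with a fold change of at least 1.5. With all 6 treated libraries against PBS, 23 of 46 members were called higher and 0 lower, where 15.2% of all 15070 genes tested were called higher and 17.1% lower. P-DXd-titled against PBS gave 19 higher and 0 lower (11.2% and 13.8% of all 14945 genes), and T-DXd-titled against PBS gave 23 higher and 0 lower (13.1% and 15.5% of all 14915 genes). These comparisons share the PBS libraries. Because the list was chosen with earlier results of these data known, its share beside all genes is descriptive and no independent test. By adjusted p alone, with no minimum fold, 34 members were higher and 1 lower in all 6 treated libraries, where 27% of all genes were higher and 28.7% lower.

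The difference extended beyond the called members, and 41 of the 46 had a log2 fold change above 0 in all treated libraries. Relative to PBS, the median log2 fold change of the 46 members was 0.61 in all treated libraries, 0.57 in the P-DXd-titled and 0.66 in the T-DXd-titled, against -0.01, -0.01 and -0.02 for all genes tested. Single libraries showed the same order. The members' median difference from the PBS mean (log2 CPM with a prior count of 2) was -0.10, 0.02 and 0.07 in PBS replicates 1 to 3, 0.58, 0.49 and 0.69 in the P-DXd-titled libraries and 0.69, 0.69 and 0.74 in the T-DXd-titled libraries. No PBS library reached the lowest treated one. In 32 of 46 members all 6 treated libraries lay above all 3 PBS libraries, and in 1 they all lay below, where 25% and 25.5% of all genes did so.

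**Figure D1:**
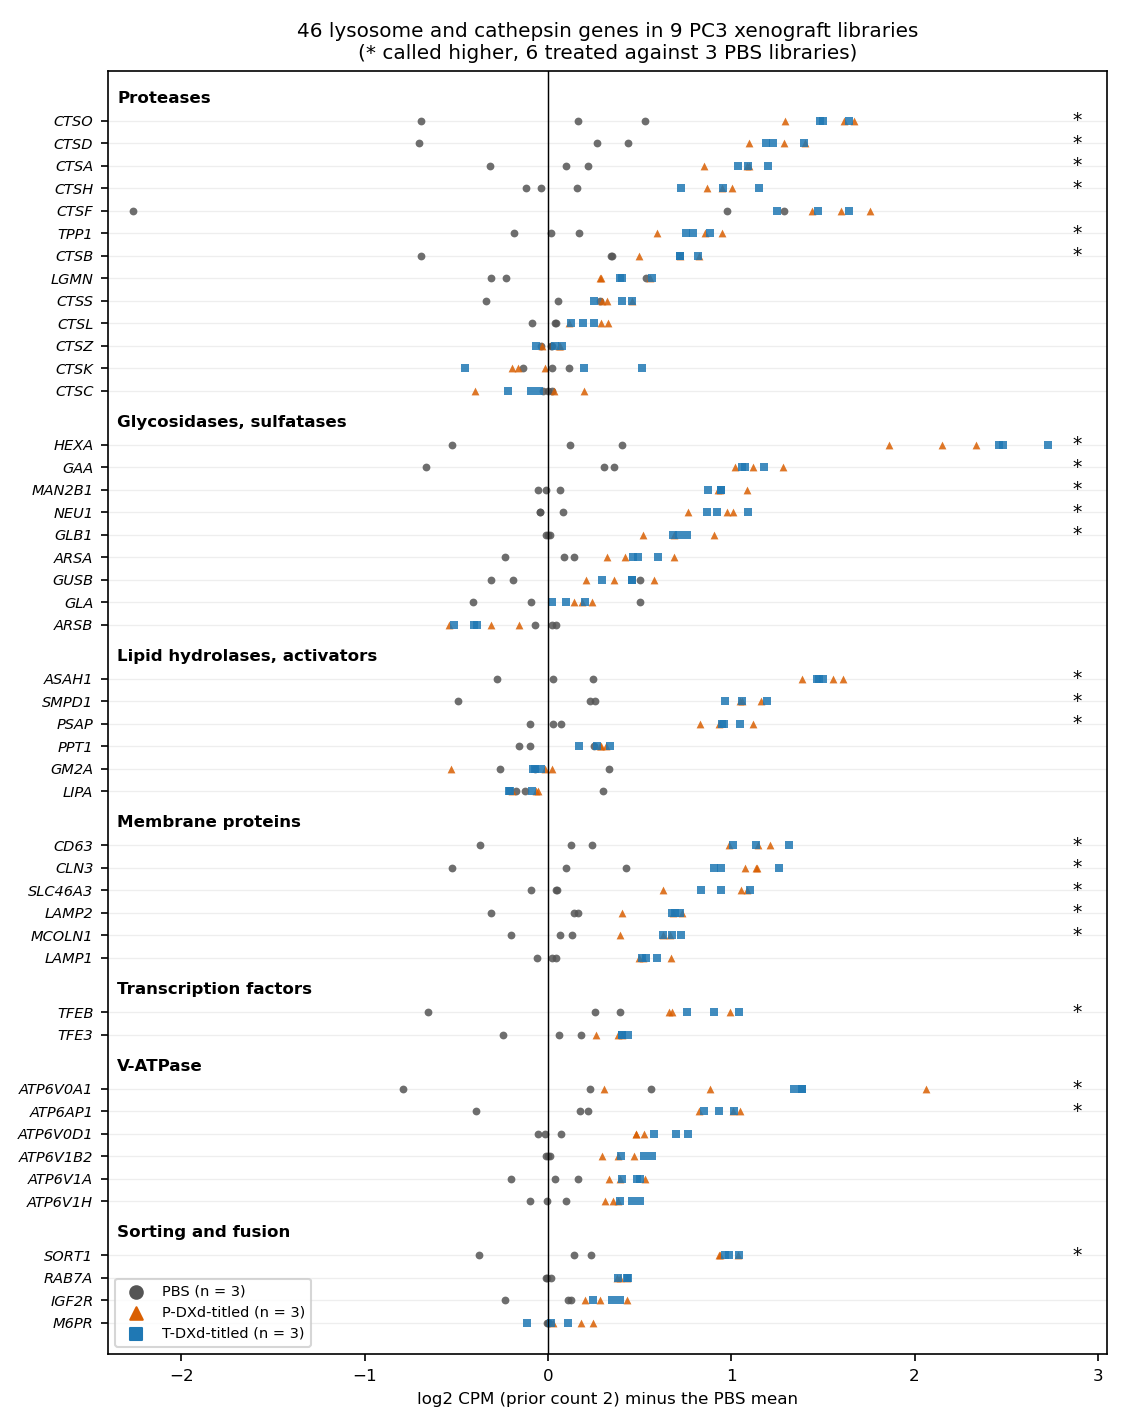
Log2 CPM of each gene in each of the 9 libraries, minus that gene's mean over the 3 PBS libraries, with genes grouped by role and an asterisk at those called higher in the 6 treated libraries. Treated libraries (triangles and squares) lie to the right of PBS (circles) for most genes, HEXA has the largest displacement, and the leftmost circle of CTSF, CTSO, CTSD and CTSB is PBS replicate 1.

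By role, the share called in all treated libraries ran from 5 of 6 membrane proteins to 1 of 4 sorting and fusion proteins. Membrane proteins had a median log2 fold change of 0.78, glycosidases and sulfatases of 0.69 (5 of 9 called), proteases of 0.63 (6 of 13) and lipid hydrolases with their activators of 0.60 (3 of 6). Transcription factors had a median of 0.56 (1 of 2), V-ATPase genes of 0.50 (2 of 6) and sorting and fusion genes of 0.34. All 6 V-ATPase genes and all 6 membrane proteins were higher by adjusted p alone, so that for these the fold minimum set the count.

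Among the proteases, CTSO, CTSD, CTSA, CTSH, TPP1 and CTSB rose. CTSO, a cysteine cathepsin whose substrates are little known, stood at 16.3, 29.5 and 38.0 CPM in PBS replicates 1 to 3, at 84.0, 64.5 and 80.7 CPM in the P-DXd-titled and at 74.5, 73.8 and 82.3 CPM in the T-DXd-titled libraries. Every treated library exceeded every PBS library, and the gene rose 2.71-fold (log2 fold change of 1.44 ± 0.21 SE, adjusted p = 0.000279). CTSD encodes the main aspartic protease of lysosomes (ENSG00000117984.8, listed on chromosome 11 from 1773982 to 1785222 on a build the tables do not name). It stood at 199.8, 391 and 439 CPM in PBS, 792, 696 and 859 CPM in the P-DXd-titled and 741, 761 and 855 CPM in the T-DXd-titled libraries, again without overlap and with PBS replicate 1 lowest, and rose 2.26-fold (log2 fold change of 1.17 ± 0.20 SE, adjusted p = 0.000712). CTSA, a carboxypeptidase that also protects the sialidase NEU1 and the galactosidase GLB1 in a complex, was at 122, 177 and 162 CPM in PBS, 325, 274 and 323 CPM in the P-DXd-titled and 311, 323 and 349 CPM in the T-DXd-titled libraries. Its groups did not overlap and it rose 2.04-fold (log2 fold change of 1.03 ± 0.12 SE, adjusted p = 5.02e-05).

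CTSH, an aminopeptidase, was counted at 20.9, 22.1 and 25.3 CPM in PBS, 45.5, 41.4 and 43.8 CPM in the P-DXd-titled and 37.5, 43.95 and 50.4 CPM in the T-DXd-titled libraries, with no overlap and a 1.90-fold rise (log2 fold change of 0.92 ± 0.10 SE, adjusted p = 4.21e-05). TPP1, which takes tripeptides from the ends of proteins, was at 69.6, 80.1 and 89.2 CPM in PBS, 153, 119.9 and 143 CPM in the P-DXd-titled and 137, 134 and 146 CPM in the T-DXd-titled libraries. It rose 1.72-fold (log2 fold change of 0.78 ± 0.10 SE, adjusted p = 8.66e-05), also with no overlap. CTSB, one of the cathepsins known to cleave peptide linkers of conjugates (ENSG00000164733.16, chromosome 8, 11700033 to 11726957 in the tables), was at 189.9, 391 and 390.0 CPM in PBS, 505, 433 and 543 CPM in the P-DXd-titled and 506, 507 and 543 CPM in the T-DXd-titled libraries. The groups did not overlap, yet PBS replicate 1 lay far below the other 2 PBS libraries, and the 1.54-fold rise (log2 fold change of 0.63 ± 0.19 SE, adjusted p = 0.0177) was 0.37 on the log2 scale without that library, under the fold minimum (adjusted p = 0.00231). CTSB was not called in either treated group alone (log2 fold change 0.60 ± 0.27 SE, adjusted p = 0.115, and 0.66 ± 0.26 SE, adjusted p = 0.0751).

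CTSL, the other cathepsin best known for cutting such linkers, was at 108, 99.0 and 108 CPM in PBS, 132, 114 and 129 CPM in the P-DXd-titled and 115, 120.0 and 125 CPM in the T-DXd-titled libraries. Every treated library lay above every PBS library, but the difference was small (1.15-fold, log2 fold change of 0.20 ± 0.07 SE, adjusted p = 0.0363) and not called. The remaining 6 proteases were not called. Their log2 fold changes in all treated libraries were 0.90 ± 0.52 SE for CTSF, 0.34 ± 0.17 SE for the asparaginyl protease LGMN, 0.32 ± 0.14 SE for CTSS, 0.00 ± 0.06 SE for CTSZ, -0.01 ± 0.22 SE for CTSK and -0.10 ± 0.11 SE for CTSC. CTSF was at 0.990, 9.55 and 11.8 CPM in PBS and 11.5 to 16.4 CPM in treated libraries, so PBS replicate 1 was far below all other libraries, and without it the log2 fold change was 0.39 (adjusted p = 0.0254). LGMN was at 75.7, 44.6 and 42.2 CPM in PBS and 63.5 to 77.5 CPM in treated libraries, here with PBS replicate 1 highest, and was called higher without it (log2 fold change 0.68, adjusted p = 4.21e-05). CTSS and CTSK, both abundant in cells of the myeloid lineage, were at 6.15 to 9.47 and 2.103 to 2.50 CPM in PBS and at 9.27 to 10.7 and 1.68 to 3.30 CPM in treated libraries, with overlap in each.

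Of the glycosidases, HEXA showed the largest change of all 46 members and had the lowest level per length in PBS, though not in treated libraries. HEXA, the alpha subunit of beta-hexosaminidase, which removes terminal sugars from gangliosides, was at 1.28, 0.660 and 1.05 CPM in PBS, 3.55, 4.34 and 4.94 CPM in the P-DXd-titled and 5.49, 6.51 and 5.40 CPM in the T-DXd-titled libraries (85 to 481 counts per library). The groups did not overlap, and it rose 5.00-fold (log2 fold change of 2.32 ± 0.27 SE, adjusted p = 5.87e-05). In GENCODE v44, 16.7% of its exon bases also lie in exons of other genes, and how reads on more than 1 gene were counted is not given in the sources used here. GAA, the glycogen-digesting acid alpha-glucosidase, was at 95.3, 194 and 187 CPM in PBS, 329, 307 and 368 CPM in the P-DXd-titled and 319, 315 and 343 CPM in the T-DXd-titled libraries. PBS replicate 1 was lowest, no treated library overlapped PBS, and the rise was 2.05-fold (log2 fold change of 1.04 ± 0.19 SE, adjusted p = 0.000934). MAN2B1, an alpha-mannosidase of glycoprotein breakdown, had tight groups at 115, 111 and 121 CPM in PBS, 222, 220.4 and 246 CPM in the P-DXd-titled and 223, 212 and 223 CPM in the T-DXd-titled libraries, and rose 1.91-fold (log2 fold change of 0.93 ± 0.07 SE, adjusted p = 4.26e-06).

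NEU1, the sialidase held by CTSA, was at 67.8, 62.1 and 62.1 CPM in PBS, 126, 109 and 129 CPM in the P-DXd-titled and 117, 121 and 136 CPM in the T-DXd-titled libraries and rose 1.89-fold (log2 fold change of 0.92 ± 0.08 SE, adjusted p = 1.36e-05). GLB1, the beta-galactosidase of the same complex, was at 97.3, 98.8 and 98.4 CPM in PBS, 158, 141 and 184 CPM in the P-DXd-titled and 161, 158 and 166 CPM in the T-DXd-titled libraries and rose 1.62-fold (log2 fold change of 0.69 ± 0.08 SE, adjusted p = 6.62e-05). For both, the lowest treated library lay well above the highest PBS library. The sulfatases ARSA and ARSB went opposite ways without either being called. ARSA was at 22.7 to 29.4 CPM in PBS and 33.4 to 43.0 CPM in treated libraries (log2 fold change of 0.47 ± 0.10 SE, adjusted p = 0.00307), and ARSB at 11.7 to 12.7 CPM in PBS and 8.43 to 11.0 CPM in treated libraries (log2 fold change of -0.40 ± 0.11 SE, adjusted p = 0.0077). ARSB was the only member with a negative log2 fold change at an adjusted p of 0.05 or less in that comparison, and the only member with all treated libraries below all PBS libraries. GUSB, the beta-glucuronidase, and GLA, the alpha-galactosidase, were not called (log2 fold change 0.33 ± 0.17 and 0.08 ± 0.16 SE). PBS replicate 1 was highest for both, at 117 against 72.6 and 66.9 CPM for GUSB, and without it GUSB was called higher (log2 fold change 0.64, adjusted p = 1.00e-04) while GLA was at 0.39 (adjusted p = 0.00291).

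Sphingolipid hydrolases rose while the lipase and the GM2 activator were not called. ASAH1, acid ceramidase, was at 64.8, 80.1 and 93.1 CPM in PBS, 231, 205 and 239 CPM in the P-DXd-titled and 219, 217 and 222 CPM in the T-DXd-titled libraries. The lowest treated library lay far above the highest PBS library, and the rise was 2.76-fold (log2 fold change of 1.47 ± 0.11 SE, adjusted p = 4.26e-06). SMPD1, acid sphingomyelinase, was at 14.3, 23.5 and 24.0 CPM in PBS, 41.5, 41.7 and 45.0 CPM in the P-DXd-titled and 39.2, 41.8 and 46.01 CPM in the T-DXd-titled libraries, with no overlap, and rose 2.04-fold (log2 fold change of 1.03 ± 0.15 SE, adjusted p = 0.000212). PSAP, the precursor of the saposins that present sphingolipids to these enzymes, was the most counted member at 664, 725 and 746 CPM in PBS, 1357, 1265 and 1544 CPM in the P-DXd-titled and 1375, 1386 and 1468 CPM in the T-DXd-titled libraries. It rose 1.94-fold with no overlap (log2 fold change of 0.95 ± 0.08 SE, adjusted p = 9.57e-06). The other 3 members of this group were not called. PPT1, which removes fatty acids from proteins, was at 135 to 179.7 CPM in PBS and 170.0 to 190.5 CPM in treated libraries (log2 fold change of 0.25 ± 0.09 SE, adjusted p = 0.0445). GM2A, the GM2 ganglioside activator, was at 91.0 to 138 CPM in PBS and 75.6 to 111 CPM in treated libraries (log2 fold change of -0.15 ± 0.15 SE, adjusted p = 0.395). LIPA, the acid lipase, was at 92.4 to 128 CPM in PBS and 90.2 to 100.4 CPM in treated libraries (log2 fold change of -0.17 ± 0.11 SE, adjusted p = 0.179). The groups of all 3 overlapped, and PBS replicate 1 was the highest PBS library in each. Without it the log2 fold changes of GM2A and LIPA were 0.05 and 0.01, that is, of the other sign.

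Among membrane proteins, CD63, CLN3, SLC46A3, LAMP2 and MCOLN1 rose. CD63, a tetraspanin of late endosomes and exosomes, was at 448, 632 and 684 CPM in PBS, 1279, 1147 and 1338 CPM in the P-DXd-titled and 1163, 1272 and 1441 CPM in the T-DXd-titled libraries and rose 2.14-fold (log2 fold change of 1.096 ± 0.13 SE, adjusted p = 6.98e-05). CLN3, whose loss causes juvenile neuronal lipofuscinosis, was scarce at 1.34, 2.07 and 2.61 CPM in PBS, 4.10, 4.28 and 4.27 CPM in the P-DXd-titled and 3.73, 4.67 and 3.64 CPM in the T-DXd-titled libraries and rose 2.03-fold (log2 fold change of 1.02 ± 0.21 SE, adjusted p = 0.00192). Neither gene had any overlap between treated and PBS libraries. SLC46A3 is a lysosomal transporter known to carry catabolites of some conjugates into the cytosol (ENSG00000139508.10, chromosome 13, 29274201 to 29293107 in the tables). It was at 5.33, 5.89 and 5.87 CPM in PBS, 11.8, 8.81 and 12.1 CPM in the P-DXd-titled and 12.3, 10.2 and 11.0 CPM in the T-DXd-titled libraries, so that PBS was tight and every treated library above it, and rose 1.91-fold (log2 fold change of 0.93 ± 0.13 SE, adjusted p = 0.00018).

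LAMP2, a glycoprotein of the lysosomal membrane needed for fusion with autophagosomes, was at 273, 374 and 379 CPM in PBS, 561, 447 and 543 CPM in the P-DXd-titled and 547, 557 and 541 CPM in the T-DXd-titled libraries and rose 1.54-fold (log2 fold change of 0.62 ± 0.11 SE, adjusted p = 0.00094). MCOLN1, a channel that releases calcium from the lysosome, was at 33.3, 41.9 and 40.1 CPM in PBS, 59.0, 50.2 and 60.7 CPM in the P-DXd-titled and 61.1, 59.2 and 63.4 CPM in the T-DXd-titled libraries and rose 1.51-fold (log2 fold change of 0.60 ± 0.09 SE, adjusted p = 0.000376). Both lay just past the fold minimum with groups that did not overlap, and both fell under it without PBS replicate 1 (log2 fold changes 0.50 and 0.52, adjusted p = 0.00034 and 0.000213). LAMP1, the most abundant lysosomal membrane glycoprotein in many cells, was at 485, 459 and 493 CPM in PBS, 685, 675 and 762 CPM in the P-DXd-titled and 685, 693 and 723 CPM in the T-DXd-titled libraries. Its groups did not overlap and its adjusted p was small, but at 1.45-fold it lay just under the fold minimum and was not called (log2 fold change of 0.53 ± 0.07 SE, adjusted p = 9.82e-05).

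The transcription factors of the set differed in level. TFEB was at 5.55, 10.5 and 11.5 CPM in PBS, 13.8, 13.99 and 17.4 CPM in the P-DXd-titled and 14.8, 16.4 and 18.01 CPM in the T-DXd-titled libraries. The groups did not overlap, and it rose 1.69-fold (log2 fold change of 0.76 ± 0.20 SE, adjusted p = 0.00853), but PBS replicate 1 was again lowest and without it the log2 fold change of 0.51 lay under the fold minimum (adjusted p = 0.00303). TFE3 was at 106, 143 and 131 CPM in PBS, 151, 164 and 167 CPM in the P-DXd-titled and 170.3, 166 and 167 CPM in the T-DXd-titled libraries. Every treated library lay above every PBS library, and the difference was not called (1.28-fold, log2 fold change of 0.35 ± 0.09 SE, adjusted p = 0.00572). These factors act mainly through their movement into the nucleus, which RNA counts do not measure.

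V-ATPase genes showed small, even differences apart from 2 members. ATP6AP1, an accessory protein of the pump, was at 114, 174 and 169.7 CPM in PBS, 302, 266 and 311 CPM in the P-DXd-titled and 271, 287 and 303 CPM in the T-DXd-titled libraries, with no overlap, and rose 1.87-fold (log2 fold change of 0.90 ± 0.12 SE, adjusted p = 0.000169). ATP6V0A1, an isoform of the membrane-bound a subunit, was scarce at 1.69, 1.34 and 0.647 CPM in PBS, 1.41, 4.82 and 2.12 CPM in the P-DXd-titled and 3.01, 2.92 and 3.01 CPM in the T-DXd-titled libraries. It was called higher (2.31-fold, log2 fold change of 1.21 ± 0.40 SE, adjusted p = 0.0242) although P-DXd-titled replicate 1 lay within the PBS range, and the call was lost without PBS replicate 2 (log2 fold change 1.27, adjusted p = 0.055) or PBS replicate 3 (0.90, adjusted p = 0.0788). ATP6V0D1, the d subunit of the membrane sector, was at 84.6, 77.4 and 79.5 CPM in PBS, 112, 112 and 115 CPM in the P-DXd-titled and 120.0, 131 and 137 CPM in the T-DXd-titled libraries. Its groups did not overlap, and its 1.48-fold difference lay just under the fold minimum (log2 fold change of 0.57 ± 0.08 SE, adjusted p = 0.00025). Without PBS replicate 1 or any 1 of the P-DXd-titled libraries it lay just past that minimum, with log2 fold changes of 0.59 to 0.62.

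The 3 soluble V1 subunits measured were not called but were each higher by adjusted p alone. ATP6V1A, the catalytic A subunit, was at 69.8 to 90.1 CPM in PBS and 101 to 116 CPM in treated libraries (log2 fold change of 0.42 ± 0.08 SE, adjusted p = 0.00178). ATP6V1B2, the B subunit, was at 93.6 to 94.96 CPM in PBS and 116 to 139.7 CPM in treated libraries (log2 fold change of 0.42 ± 0.07 SE, adjusted p = 0.000659). ATP6V1H, the regulatory H subunit, was at 26.1 to 29.9 CPM in PBS and 34.6 to 39.5 CPM in treated libraries (log2 fold change of 0.38 ± 0.08 SE, adjusted p = 0.0017). In none of the 3 did treated and PBS libraries overlap.

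SORT1 was the only sorting gene called. Sortilin, its product, carries prosaposin, acid sphingomyelinase and some cathepsins to the lysosome. It was at 70.9, 102 and 108 CPM in PBS, 177, 176 and 189 CPM in the P-DXd-titled and 190.0, 183 and 179.9 CPM in the T-DXd-titled libraries, with no overlap, and rose 1.92-fold (log2 fold change of 0.94 ± 0.11 SE, adjusted p = 7.76e-05). Of the receptors for mannose 6-phosphate, IGF2R was at 218 to 279.8 CPM in PBS and 295 to 346 CPM in treated libraries (log2 fold change of 0.29 ± 0.09 SE, adjusted p = 0.018), and M6PR at 65.9 to 66.2 CPM in PBS and 60.9 to 78.2 CPM in treated libraries (log2 fold change of 0.06 ± 0.08 SE, adjusted p = 0.532). RAB7A, the GTPase of late endosome fusion, was tight at 227 to 232 CPM in PBS and 298 to 311 CPM in treated libraries (log2 fold change of 0.39 ± 0.05 SE, adjusted p = 0.000198). Treated and PBS libraries overlapped for M6PR and did not overlap for the other 3 genes.

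Levels can be compared between genes only per length, and CPM per kb of exon (GENCODE v44, all exons of a gene merged) spanned a wide range among the members. In PBS tumors the order was led by CD63 at 242.8 ± 51.0 CPM per kb (SD, n = 3) and PSAP at 229 ± 13.7, which did not differ beyond their spread. LAMP1 followed at 83.4 ± 3.13 and CTSD at 60.2 ± 22.2, whose spread reached that of LAMP1 on the high side and PPT1 (45.1 ± 7.16) on the low side. Among the cathepsins the order in PBS on this scale was CTSD, CTSB at 30.7 ± 11.0, CTSZ at 25.0 ± 0.546, CTSC at 20.1 ± 0.356, CTSA at 17.8 ± 3.30 and CTSL at 17.2 ± 0.876. In this order CTSB did not differ from CTSZ beyond its spread, nor CTSA from CTSC or CTSL. CTSO, CTSF, CTSH, CTSS and CTSK were at 3.53 ± 1.38, 1.76 ± 1.35, 1.65 ± 0.166, 1.15 ± 0.242 and 0.274 ± 0.0237 CPM per kb. SLC46A3, at 1.51 ± 0.0840, and TFEB, at 1.36 ± 0.473, were near the low end, far below TFE3 at 30.1 ± 4.42. The lowest were CLN3, ATP6V0A1 and HEXA, at 0.204 ± 0.0650, 0.0947 ± 0.0410 and 0.0626 ± 0.0197 CPM per kb. Exon length counts every annotated isoform, so genes with many isoforms are set low on this scale. The lengths are also not those of the annotation behind the counts, whose coordinates differ. CTSZ was given 19384 exon bases, more than its whole span as listed with the counts (57570240 to 57582302). Before division by length, CTSC and CTSZ (means of 499 and 484 CPM in PBS) stood above CTSD and CTSB (343 and 324 CPM). The order of these cathepsins therefore depends on the lengths used.

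**Figure D2:**
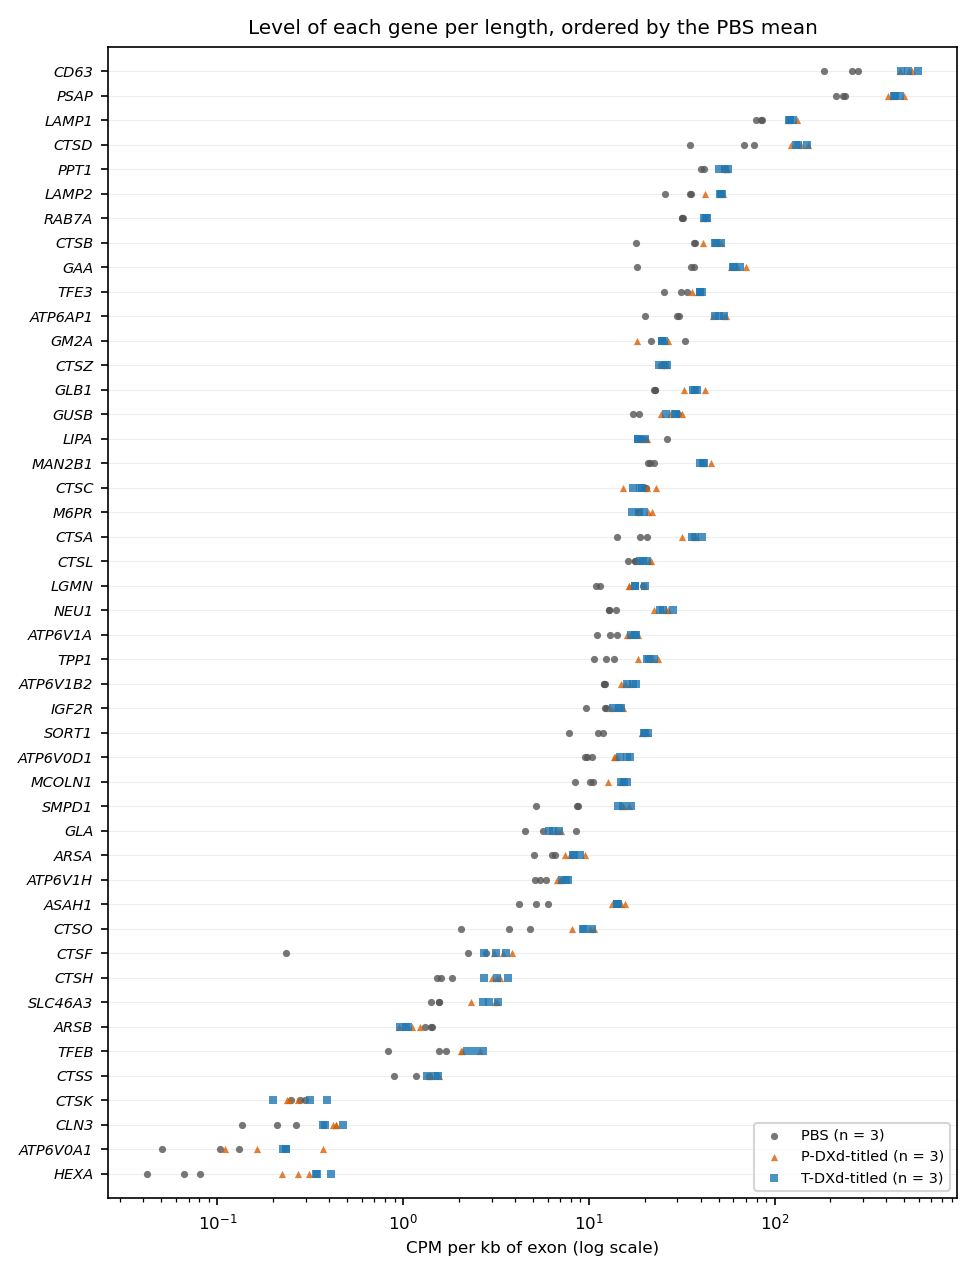
CPM per kb of exon (log scale) of each gene in each of the 9 libraries, ordered by the PBS mean. CD63 and PSAP lie highest and HEXA lowest in PBS, and the shift from PBS (circles) to treated libraries (triangles and squares) is seen at high and at low levels.

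Some counts could be shared with other genes. In GENCODE v44 the share of exon bases that also lie in exons of another gene was highest for CTSD (48.0%), CTSZ (31.7%), CLN3 (31.1%), M6PR (30.9%), CTSA (21.5%) and MAN2B1 (21.2%), and it was 0 for 28 of the 46 members. For CLN3 and MAN2B1 the largest partner was an annotated readthrough gene on the same strand. These shares need not hold for the annotation behind the counts. By the coordinates listed with the counts, CTSZ and MAN2B1 overlapped 0 other listed genes, CTSD, CLN3 and M6PR 1 each and CTSA 2. How far the counts of these genes are uncertain was not tested, since neither strand use nor the treatment of shared reads in counting is given in the sources used here.

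Each conjugate group was next compared with PBS on its own, at 3 libraries against 3. In the P-DXd-titled group CTSO, CTSD, CTSA, CTSH, TPP1, HEXA, GAA, MAN2B1, NEU1, GLB1, ASAH1, SMPD1, PSAP, CD63, CLN3, SLC46A3, LAMP2, ATP6AP1 and SORT1 were called higher. The 23 members called higher in the T-DXd-titled group included MCOLN1, TFEB, ATP6V0A1 and ATP6V0D1, which were not called in the P-DXd-titled group. For these 4 genes the log2 fold change was 0.55, 0.71, 1.17 and 0.49 in the P-DXd-titled group (adjusted p = 0.0167, 0.0801, 0.131 and 0.00798) and 0.65, 0.82, 1.26 and 0.66 in the T-DXd-titled group (adjusted p = 0.00372, 0.042, 0.0278 and 0.00201). A call in one group and not in the other does not show that they differ, which is tested below. HEXA had the largest log2 fold change in both groups, at 2.096 ± 0.32 SE and 2.53 ± 0.29 SE, followed by ASAH1 at 1.498 ± 0.15 SE and 1.45 ± 0.13 SE and CTSO at 1.45 ± 0.29 SE and 1.44 ± 0.28 SE.

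**Figure D3:**
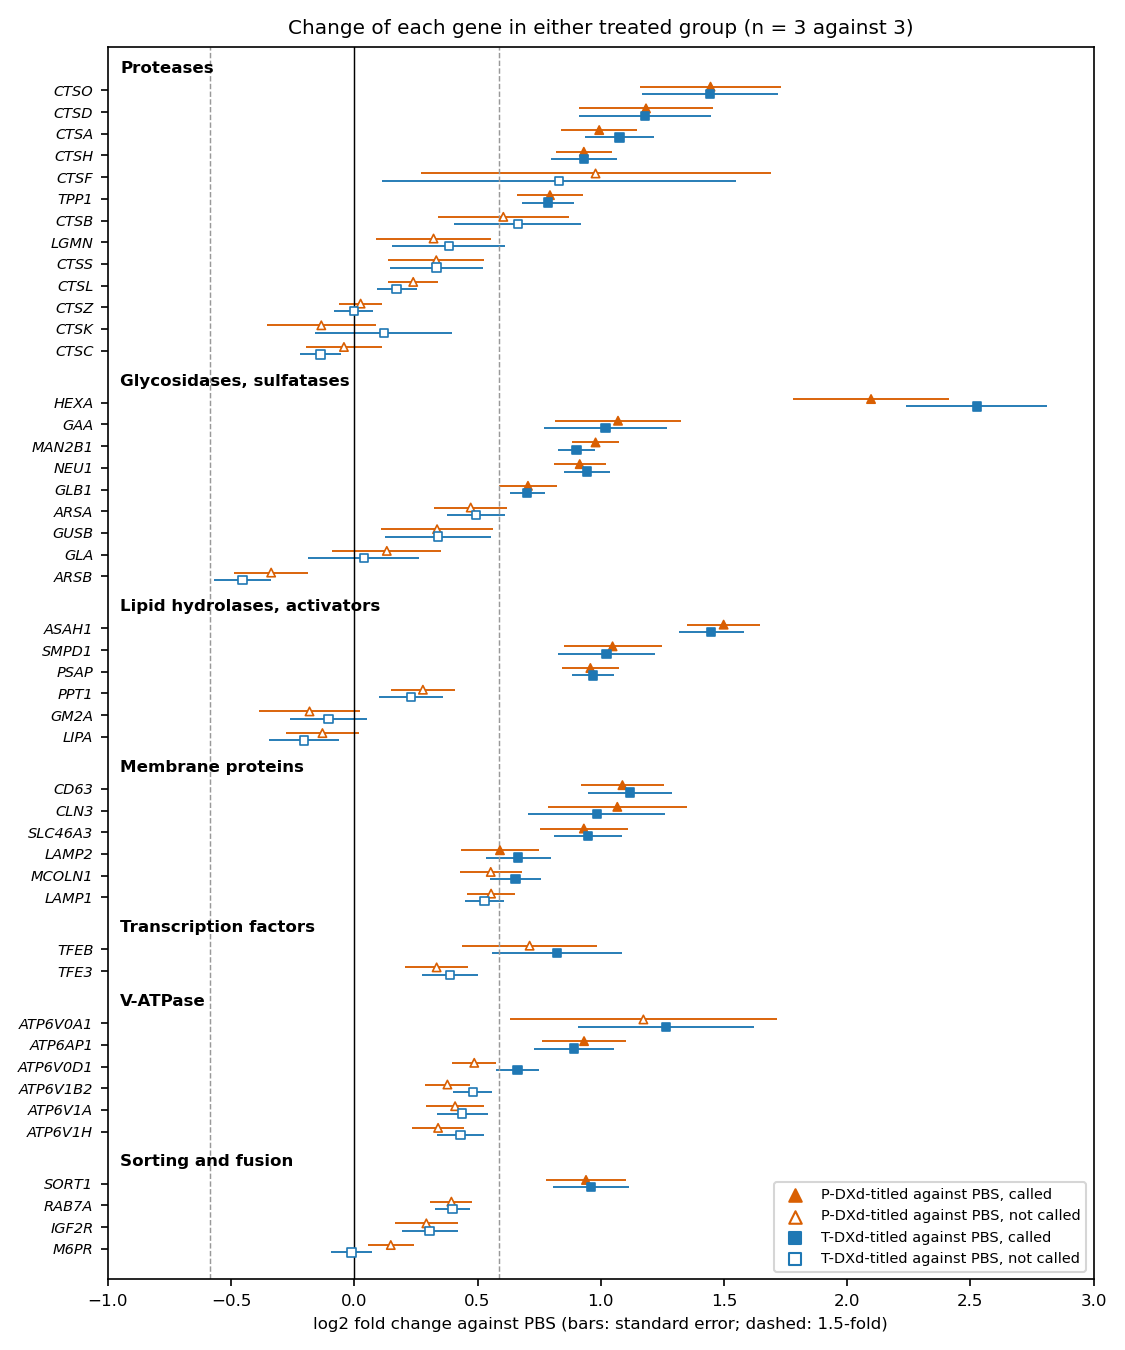
Log2 fold change against PBS with its standard error for each gene in the P-DXd-titled (triangles) and T-DXd-titled group (squares), filled where called. The estimates of both groups lie close together for nearly every gene, and open symbols to the right of the dashed 1.5-fold line, such as CTSB and CTSF, have long error bars.

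With 3 libraries against 3, some of these calls turned on a single library. In the P-DXd-titled group, leaving out P-DXd-titled replicate 1 or 3 put the adjusted p of CTSD at 0.0545 and 0.0693 and that of GAA at 0.0571 and 0.0759, leaving out replicate 3 put that of SLC46A3 at 0.0501, and leaving out PBS replicate 2 or any 1 P-DXd-titled library put that of CLN3 at 0.0687 to 0.0852. LAMP2, which had only just passed the fold minimum, was not called without PBS replicate 1 (log2 fold change 0.45), PBS replicate 2 or P-DXd-titled replicate 1 or 3 (adjusted p = 0.0553, 0.0917 and 0.0961). LAMP1 and MCOLN1 were called in this group without P-DXd-titled replicate 2 (log2 fold changes 0.59 and 0.64) and MCOLN1 also without PBS replicate 2 (0.60). In the T-DXd-titled group the calls of CTSD (without T-DXd-titled replicate 3, adjusted p = 0.0553), GAA (without any 1 T-DXd-titled library, 0.0521 to 0.0647), CLN3 and ATP6V0A1 (without PBS replicate 2 or any 1 T-DXd-titled library, 0.0706 to 0.103 and 0.066 to 0.0847) were lost. TFEB was not called there without any 1 of PBS replicates 1 and 2 and the T-DXd-titled libraries (log2 fold change 0.57 without PBS replicate 1, adjusted p of 0.0685 to 0.132 without the others), and LAMP2 and MCOLN1 not without PBS replicate 1 (log2 fold changes 0.53 and 0.57). LGMN and GUSB were called higher in both groups without PBS replicate 1, at log2 fold changes of 0.65 and 0.64 in the P-DXd-titled and 0.71 and 0.64 in the T-DXd-titled group. With PBS replicate 1 and the muscle-rich P-DXd-titled replicate 2 both left out, 21 members were called higher in the P-DXd-titled group and 22 in all treated libraries, where 12.1% and 13.9% of all genes tested were.

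Between the conjugates themselves no member was called. P-DXd-titled against T-DXd-titled libraries gave 0 of 46 members in the edgeR quasi-likelihood test, where 0.0273% of all 14653 genes were called. DESeq2 also gave 0, where 0.137% of all 16008 genes were called higher. In the edgeR test 2 members had an unadjusted p under 0.05, a share near the 3.69% of all genes tested. These were HEXA, with a log2 fold change of -0.44 (95% interval -0.82 to -0.06, adjusted p = 1.00), and ATP6V0D1, at -0.19 (95% interval -0.34 to -0.03, adjusted p = 1.00). In 3 members, HEXA, ATP6V0D1 and ATP6V1H, every T-DXd-titled library lay above every P-DXd-titled one, and in 0 members the reverse, where 3.96% and 4.13% of all genes did so. The members' log2 fold changes ranged from -0.44 to 0.15 with a median of -0.02. For 43 of the 46 members the 95% interval lay within 1.5-fold in both directions, and for the other 3 (HEXA, ATP6V0A1 and CTSK) it reached at most 1.91-fold. For CTSB, CTSL and SLC46A3 the intervals of the log2 fold change were -0.27 to 0.13, -0.11 to 0.22 and -0.34 to 0.28. A p that misses the threshold does not show that the conjugates acted alike, and since titles and treatment field disagree, the sign of these differences is that of the titles.

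The PBS libraries themselves differed for many members. PBS replicate 1 lay more than 1.5-fold below the mean of PBS replicates 2 and 3 in 9 of 46 members and more than 1.5-fold above it in 4 (19.6% and 8.70%, against 17.7% and 14.2% of all 15070 genes tested). Replicates 2 and 3 differed by more than 1.5-fold in 2 of 46 members, against 1473 of all 15070 genes. Relative to the mean of replicates 2 and 3, PBS replicate 1 was at 0.0926 for CTSF, 0.481 for CTSD, 0.483 for CTSO, 0.486 for CTSB, 0.500 for GAA, 0.506 for TFEB, 0.571 for CLN3, 0.602 for SMPD1 and 0.664 for ATP6AP1. On the high side it was at 1.67 for GLA, 1.68 for GUSB, 1.71 for ATP6V0A1 and 1.74 for LGMN. Without PBS replicate 1, 22 members were called higher in all treated libraries, where 13.6% of all genes were, and the members' median log2 fold change was 0.54.

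**Figure D4:**
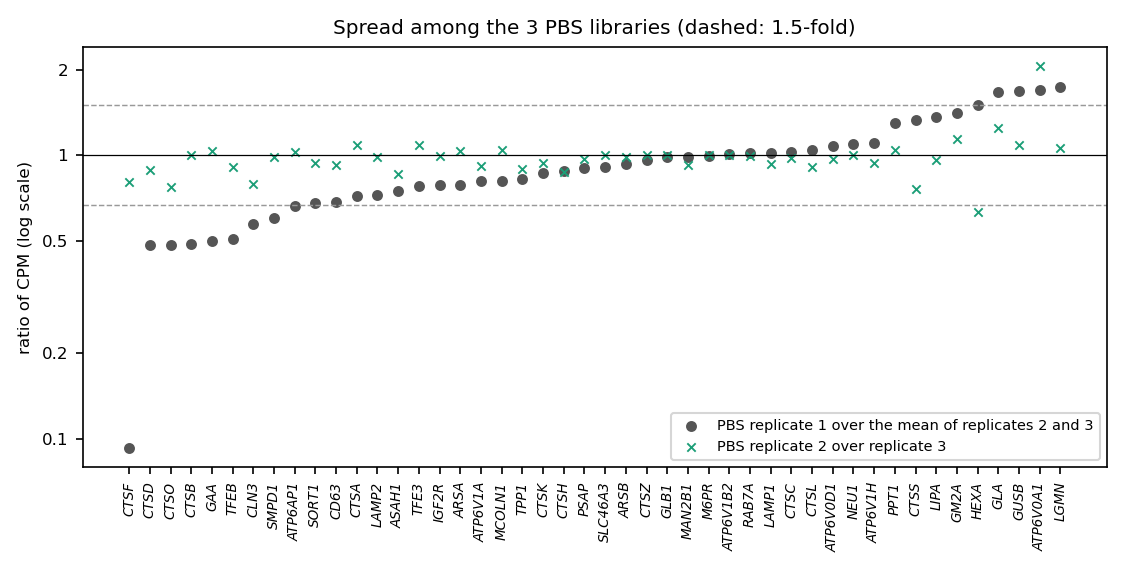
Ratio of CPM in PBS replicate 1 to the mean of PBS replicates 2 and 3 (circles), and of PBS replicate 2 to replicate 3 (crosses), for each gene on a log scale, ordered by the former. CTSF has the lowest ratio at 0.0926, LGMN the highest at 1.74, and crosses stay near 1 for all but HEXA and ATP6V0A1.

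A second list of 113 lysosomal genes, drawn up from known function to cover the rest of the organelle, was read in the same way. It too was chosen with earlier results of these data known. It had 112 genes in the tables (CTSG was not listed) and 111 tested, of which 46 were called higher and 6 lower in all treated libraries, 40 and 4 in the P-DXd-titled and 43 and 5 in the T-DXd-titled group, beside the shares of all genes called higher (15.2%, 11.2% and 13.1%) and lower (17.1%, 13.8% and 15.5%), with median log2 fold changes of 0.42, 0.41 and 0.43. By role, other V-ATPase genes had 9 called higher and 1 lower of 16 (median 0.62), other hydrolases 11 and 1 of 22 (0.56), regulators of lysosomal transcription and nutrient signaling 6 and 0 of 18 (0.46), other membrane proteins 8 and 1 of 19 (0.36) and other sorting and fusion genes 8 and 0 of 24 (0.36). Other proteases and their inhibitors were the exception, with 4 called higher and 3 lower of 12 and a median of -0.23.

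**Figure D5:**
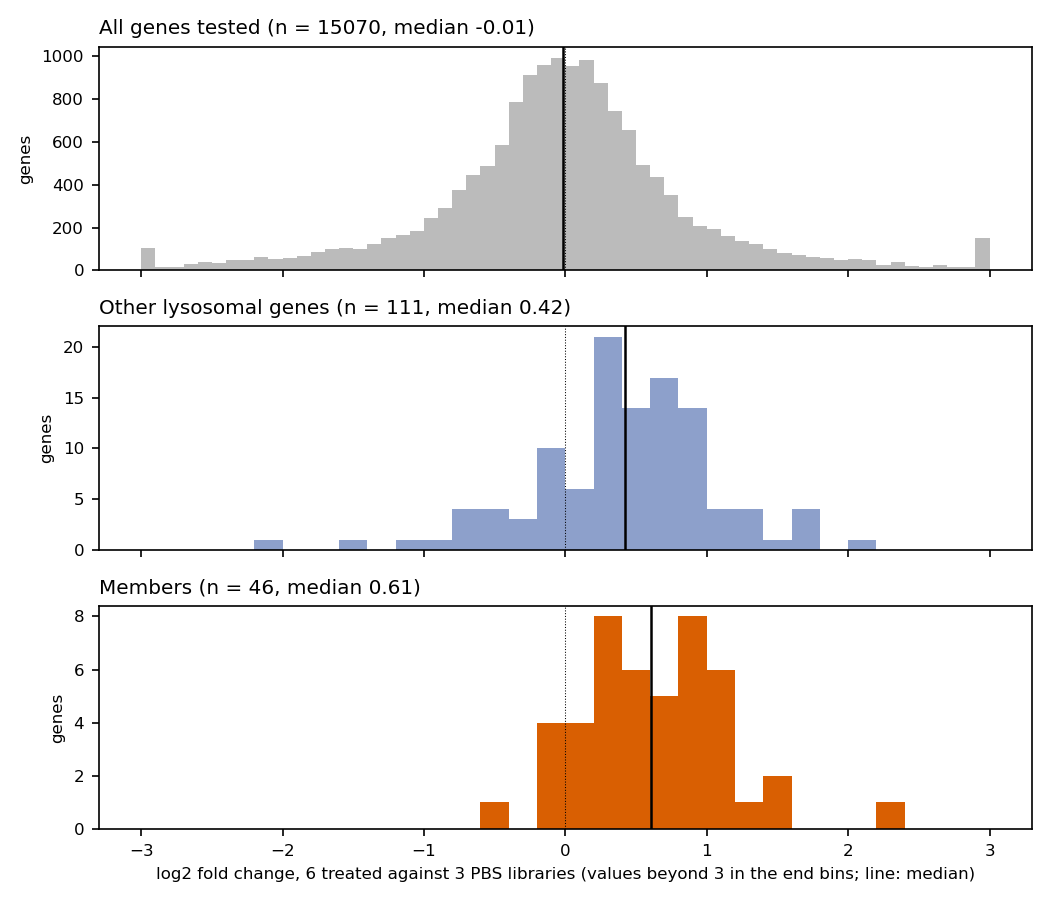
Histograms of the log2 fold change of the 6 treated against the 3 PBS libraries for all genes tested, the second lysosomal list and the 46 members, with the median as a solid line. The median is near 0 for all genes, 0.42 for the second list and 0.61 for the members, of which 41 lie above 0.

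The largest rises of that list among genes averaging 100 or more counts were in ATP6V0A4, RRAGD, ACP5 and IDUA. ATP6V0A4, an isoform of the a subunit of the proton pump, was at 0.957, 1.33 and 1.05 CPM in PBS, 4.77, 5.15 and 5.49 CPM in the P-DXd-titled and 4.80, 4.40 and 5.48 CPM in the T-DXd-titled libraries and rose 4.43-fold (log2 fold change of 2.15 ± 0.17 SE, adjusted p = 6.34e-06). RRAGD, a GTPase that links lysosomal nutrient sensing to mTORC1, was at 0.356, 2.06 and 1.71 CPM in PBS and 3.02 to 6.15 CPM in treated libraries (log2 fold change of 1.79 ± 0.45 SE, adjusted p = 0.00613). In all 4 genes the treated libraries lay above PBS without overlap. ACP5, the tartrate-resistant acid phosphatase of osteoclasts and macrophages, was at 0.779, 0.552 and 0.878 CPM in PBS and 1.57 to 3.72 CPM in treated libraries (log2 fold change of 1.78 ± 0.31 SE, adjusted p = 0.000722), and IDUA, the iduronidase of glycosaminoglycan breakdown, at 2.54, 9.47 and 9.97 CPM in PBS and 18.1 to 24.4 CPM in treated libraries (log2 fold change of 1.51 ± 0.34 SE, adjusted p = 0.00352). In all treated libraries the calls of all 4 genes were kept under every alternative. In the P-DXd-titled group RRAGD was not called with all libraries, but was called without PBS replicate 1. ACP5 lost its call there without PBS replicate 2 or P-DXd-titled replicate 3. IDUA lost its call there without PBS replicate 2 or any 1 P-DXd-titled library.

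The genes of the list with that count that fell were CTSV, TPCN2 and CSTA. CTSV, a cathepsin closely related to CTSL, was at 15.7, 14.6 and 14.2 CPM in PBS, 5.74, 5.34 and 5.36 CPM in the P-DXd-titled and 4.69, 5.14 and 5.14 CPM in the T-DXd-titled libraries, a fall to 0.35 of the PBS level (log2 fold change of -1.52 ± 0.10 SE, adjusted p = 3.55e-06). TPCN2, a cation channel of endosomes and lysosomes, was at 28.4 to 33.2 CPM in PBS and 15.3 to 18.6 CPM in treated libraries (log2 fold change of -0.83 ± 0.09 SE, adjusted p = 3.35e-05). CSTA, an inhibitor of cysteine cathepsins, was at 70.0 to 104 CPM in PBS and 43.7 to 57.9 CPM in treated libraries (log2 fold change of -0.74 ± 0.14 SE, adjusted p = 0.00112). Treated and PBS libraries did not overlap in any of the 3. The call of CSTA was lost without PBS replicate 1 (log2 fold change -0.53, under the fold minimum, in all treated libraries). It was lost too with P-DXd-titled replicate 2 also left out (-0.49), without any 1 P-DXd-titled library in that group (adjusted p = 0.0506 to 0.0776) and without T-DXd-titled replicate 1 or 2 in the other (0.0689 and 0.0655).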

How the data were processed

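RNA-Seq counts of 9 PC3 xenograft libraries were analyzed, 3 each from mice given PBS, P-DXd or T-DXd by title. The deposited values are raw counts of reads per gene, which the authors obtained with Cutadapt for trimming, STAR for alignment and featureCounts for counting, per the study's methods and the submitters' processing notes. There were 2 tables, of 16098 and 16114 genes, with the PBS libraries in both and identical counts there for the 16008 shared genes. Each listed gene is protein coding and reached 5 counts or more in 2 or more libraries of its table. The processing notes name GRCh38, but the coordinates in the tables do not match it and are given as listed. Use of strand, treatment of reads on several genes and removal of mouse reads are not given in the sources used here.

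Each comparison was fitted over all genes with edgeR 4.0.16 in R 4.3.3 (TMM normalization, filterByExpr, two-sided quasi-likelihood F test, Benjamini-Hochberg adjustment). Standard errors were computed from this test, as the absolute log2 fold change divided by the square root of F. The 95% intervals were derived from these standard errors with the t distribution, and both are approximate. All 46 members passed the filter in each comparison. Pairwise comparisons used 6 libraries and the comparison of all treated libraries used 9. Genes were called at an adjusted p of 0.05 or less and a 1.5-fold change, the threshold of the study. CPM were computed over all 9 libraries. Titles give each library its own animal code, and p-values measure the spread between these tumors. Library totals of 54481702 to 125538606 gave 73 or more counts per member and library. Pairs of replicates differed by 17.8 to 396 in chi-square per gene, and none was a duplicate.

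Up to 30 members with a call in any comparison, and CTSB, CTSL, LAMP1, SLC46A3, TFEB and TFE3 whatever their values, were described one by one, and of the second list the 4 largest rises and up to 4 falls at a mean of 100 counts or more. The members, lists and naming rule were chosen with earlier results of these data known. Each comparison was repeated with DESeq2 1.42.0 (Wald test), with RLE in place of TMM, without filterByExpr or with 10 counts required in each library, without the fold minimum or with glmTreat at 1.5-fold, with the 9 libraries fitted jointly, with a digit of the animal code as a block, and without each library in turn. Omission of PBS replicate 1 together with P-DXd-titled replicate 2 was chosen after the data had been seen. The edgeR fit was first tested on simulated counts with known 3-fold changes. Against PBS it recovered 74% in the P-DXd-titled group, 76.3% in the T-DXd-titled group and 80.5% in all treated libraries. Between the conjugates it recovered 91.4%. In the same order 10, 9, 7 and 16 unchanged genes were called, and 0 calls had the wrong sign. Genes not called can therefore include changed ones. Promoters were taken from RefSeq (GRCh38.p14) by symbol, and exon lengths and shared exon bases from GENCODE v44 by gene identifier.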

Additional observations from a re-analysis of the deposited data

How the results depend on the processing

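The number of members called was 14 to 20 in the P-DXd-titled group (19 with all libraries), 18 to 23 in the T-DXd-titled group (23) and 22 to 24 in all treated libraries (23) when 1 library was left out, and 0 between the conjugates throughout. The share of all genes called higher moved too, from 5.21% to 12%, 8.29% to 14.2% and 13.6% to 16.1%. With DESeq2 the counts of members were 20, 24, 23 and 0, where 12.6%, 14.2%, 14.9% and 0.137% of all genes were called higher. The genes added there were TFEB in the P-DXd-titled group (adjusted p = 0.0351) and CTSB in the T-DXd-titled group (adjusted p = 0.0310). No alternative called a member lower, apart from ARSB, which was called so with no fold minimum in the T-DXd-titled group and in all treated libraries. Counts moved by more than 1.5 times with glmTreat, which tests against a 1.5-fold change and called 7 members in the P-DXd-titled and 10 in the T-DXd-titled group, and 8, 14 and 27 genes of the second list in the P-DXd-titled, T-DXd-titled and all treated libraries, where 44, 48 and 52 had been called. With glmTreat 2.78%, 4.71% and 7.44% of all genes were called higher, so the background dropped as well. With no fold minimum 35 members were called in all treated libraries, and 75 and 83 genes of the second list in the T-DXd-titled and all treated libraries, where 19.9% and 27% of all genes were called higher. For the second list, leaving out 1 library gave 29 to 47 calls in the P-DXd-titled group, the lowest without P-DXd-titled replicate 3, 33 to 52 in the T-DXd-titled group and 46 to 54 in all treated libraries. The members' median in the T-DXd-titled group was 0.57 to 0.71 over single libraries left out, the lowest without PBS replicate 1.

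Replicates share only a digit of the animal code, and libraries with the same digit did not deviate together (mean r = 0.020 over 13 pairs, -0.019 over 14 other pairs). With this digit as a replicate block 19, 21, 22 and 0 members were called in the 4 comparisons. Of all genes, 10.5%, 10.6%, 14.6% and 0.0205% were called higher there. The block lost the calls of CLN3 and TFEB in the T-DXd-titled group (adjusted p = 0.0549 and 0.0819) and of MCOLN1 in all treated libraries (log2 fold change 0.58).

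Of the members' log2 fold changes under alternatives, 775 of 828 in all treated libraries, 637 of 690 in the P-DXd-titled and 586 of 644 in the T-DXd-titled group kept sign and call. The sign changed in 14, 7 and 12 values, all of uncalled members. With PBS replicate 1 and P-DXd-titled replicate 2 left out, CTSC, GM2A and LIPA were at 0.13, 0.17 and 0.085 in the P-DXd-titled group, and GM2A and LIPA at 0.12 and 0.021 in all treated libraries. Leaving out single libraries gave GM2A from -0.32 to 0.0074 and LIPA from -0.24 to 0.040 in the P-DXd-titled group, where GLA ran from -0.069 to 0.43 and CTSC from -0.17 to 0.12. In the T-DXd-titled group GM2A ran from -0.23 to 0.089, GLA from -0.15 to 0.34, CTSZ from -0.032 to 0.041, CTSK from -0.11 to 0.34 and M6PR from -0.066 to 0.051. In all treated libraries GM2A ran from -0.28 to 0.052, LIPA from -0.27 to 0.0088, GLA from -0.11 to 0.39, CTSZ from -0.0037 to 0.021 and CTSK from -0.13 to 0.081. CTSZ in the T-DXd-titled group was at 0.0049 with DESeq2, 0.0035 with RLE factors and 0.00075 with no filter, and in all treated libraries at -0.0010 with at least 10 counts and -0.0061 with the block, where CTSK was at 0.0039 (0.011 with no filter). Apart from the alternatives that change the threshold or the libraries, the cause of these shifts was not tested. Depth limited HEXA, ATP6V0A1, CLN3 and CTSK most, with 73 to 481 counts per library.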
